A study of Mus musculus with 6 samples.

Results

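The replication-dependent histone genes were followed in RNA of bone endothelial cells (BECs). They were chosen by symbol: every row of the count table whose identifier maps to a protein-coding gene of GENCODE M39 named as a clustered H1, H2A, H2B, H3 or H4 gene. This gave 54 genes of the 37991 rows in the table, namely 5 H1, 16 H2A, 14 H2B, 7 H3 and 12 H4 genes. The series compared BECs of female and male c57/Bl6 mice at 12 weeks of age, with no transgene or treatment named in the labels for these samples. The cells came, per the labels, from the tibia (the study's methods name the femur as well) by selection on endomucin, a surface protein of bone vessels, and each sex gave 3 libraries. The labels do not state whether each library is 1 animal, so the p-values below measure the spread between these libraries. The female libraries held 47678806 to 58325745 counts each and the male ones 49236654 to 50406097, and all levels are CPM, that is counts scaled to library size with TMM factors.

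Histones are the proteins that DNA is wound around: an octamer of H2A, H2B, H3 and H4 forms the nucleosome core, and linker H1 binds the DNA where it enters and leaves. The replication-dependent genes are clustered, mostly lack introns and are transcribed in S phase, when new DNA needs packing. Their mRNAs usually end in a conserved stem-loop, bound by SLBP, in place of a poly(A) tail, so that a library made from polyadenylated RNA holds them in part only. Many replication-independent genes, such as H3f3a and H2az1, carry introns, are polyadenylated and are used throughout the cell cycle.

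The 54 genes lie in 3 clusters of GRCm39. Chromosome 13 holds 42 of them, between 21900592 and 24118834, and these carried 91.1% of the summed histone CPM. Chromosome 3 holds 9, between 96127181 and 96176457, with 7.6% of the sum, and chromosome 11 holds 3 with 1.28%. The exons of 29 of the 54 overlap those of another annotated gene.

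The stem-loop was sought as the letters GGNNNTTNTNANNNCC, with the 6 bases on either side of the 4-base loop able to pair (G with T allowed), in the sense strand of each canonical transcript. It was found in 36 of the 54 histone genes, against 0.496% of 21770 protein-coding genes. By family it stood in 3 of 5 H1, 9 of 16 H2A, 7 of 14 H2B, 6 of 7 H3 and 11 of 12 H4 genes. Some models without it, such as those of H2ac10, H2ac12, H2ac13 and H2ac22, are short and hold little beyond the coding region. The 36 genes used 7 forms of the stem-loop. The form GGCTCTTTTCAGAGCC occurred in 20 genes of the H1, H2A, H2B and H3 families, whereas the H4 genes carried forms with GGCC or GGTC at the outer stem. The element follows as it stands in GENCODE M39 transcripts, for at least 1 gene of each form, with the stem-loop in capitals.
H1f2: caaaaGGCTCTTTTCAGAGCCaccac
H2ac11: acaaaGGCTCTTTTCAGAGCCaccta
H2ac20: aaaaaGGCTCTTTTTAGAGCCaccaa
H2bc12: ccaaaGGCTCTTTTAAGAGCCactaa
H4c9: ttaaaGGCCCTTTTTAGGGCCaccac
H4c3: caaaaGGCCCTTTTCAGGGCCaccca
H4c1: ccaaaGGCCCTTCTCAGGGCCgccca
H4c2: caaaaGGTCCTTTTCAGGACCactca

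The models differed in where they ended. In H2ac11 the annotated transcript stopped 23 bases after the stem-loop, and in H2bc12 it stopped 30 bases after it. The transcript of H1f2 ran on for 840 bases, that of H2ac6 for 2010 and that of H4c9 for 330.

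Promoter sequence was taken from RefSeq (GRCm38.p6, 250 bases before to 50 after each start), where 46 of the 54 genes matched by symbol. Each of 4 motifs was sought on both strands, and overlaps between motifs were not excluded. The letters TATAAA were present in 65.2% of the histone promoters and in 15.7% of promoters of all 27025 genes. A match anywhere in the window was counted, also after the start, and head-to-head genes share part of their windows, so that 1 match can count for both. CCAAT stood in 82.6%, against 41.1% of all genes, and was found in every H1, H2A, H2B and H3 promoter but in 3 of 11 H4 promoters. The octamer ATTTGCAT, known from H2B promoters, was in 6 of 15 H2A and 5 of 9 H2B promoters and in none of the other families, against 1.97% of all genes. The H4 promoters instead held GGTCCG, a core of the H4 subtype-specific element, in 10 of 11, against 9.44% of all genes and none of the other histone families. These matches are descriptions of the letters and were not tied to binding. The 250 bases before the start are shown for an H1, an H2A and an H4 gene with the motifs in capitals (ATTGG, ATGCAAAT and CGGACC are the same motifs on the other strand). H1f2 is at chr13:23738557-23738806 on the plus strand, H2ac6 at chr13:23683960-23684209 on the minus strand and H4c9 at chr13:22041363-22041612 on the minus strand.
H1f2: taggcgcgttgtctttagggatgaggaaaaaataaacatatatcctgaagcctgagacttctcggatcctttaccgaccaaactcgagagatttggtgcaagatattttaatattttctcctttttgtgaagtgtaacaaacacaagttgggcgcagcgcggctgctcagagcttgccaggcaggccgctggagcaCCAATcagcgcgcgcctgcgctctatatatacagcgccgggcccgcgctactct
H2ac6: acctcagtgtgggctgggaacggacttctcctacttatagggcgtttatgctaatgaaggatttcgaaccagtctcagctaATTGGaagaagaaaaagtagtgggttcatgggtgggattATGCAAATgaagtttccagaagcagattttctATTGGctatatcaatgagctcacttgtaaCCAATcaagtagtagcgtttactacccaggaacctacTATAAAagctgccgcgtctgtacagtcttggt
H4c9: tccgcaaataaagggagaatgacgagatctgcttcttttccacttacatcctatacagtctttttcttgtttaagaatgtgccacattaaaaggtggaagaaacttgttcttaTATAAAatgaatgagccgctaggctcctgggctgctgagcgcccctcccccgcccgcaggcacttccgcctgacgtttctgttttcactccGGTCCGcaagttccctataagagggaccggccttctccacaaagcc

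The genes of a family are also near copies of one another. The 40-base stretch found in most members of each core histone family is shown here, since a read of that length from it fits many genes equally well.
H2A: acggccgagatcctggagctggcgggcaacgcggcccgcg
H2B: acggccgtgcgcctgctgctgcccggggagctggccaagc
H3: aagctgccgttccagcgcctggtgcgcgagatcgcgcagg
H4: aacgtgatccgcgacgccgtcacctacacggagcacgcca
The H2A stretch was in 14 of the 16 H2A genes, the H2B stretch in 12 of 14, the H3 stretch in 7 of 7 and the H4 stretch in 11 of 12. Counting every annotated transcript on either strand, the H2A stretch occurred in 25 genes in all. The median share of a gene's 40-base windows that also occurred at another locus was 64.9% for H2A, 46.4% for H2B, 61.1% for H3 and 45.2% for H4, but 2.84% for H1. With windows of 100 bases, the read length given by the study's methods, it was still 58.02% for H2A, 33.7% for H2B, 42.9% for H3 and 25.4% for H4. How reads that fit several genes were counted is not given in the sources used here.

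Counts were found for 52 of the 54 genes, whereas H2ac19 and H3c14 had 0 counts in every library, under a floor of 3 counts (0.0477 to 0.0639 CPM). Every 40-base window of H2ac19 also occurred elsewhere, all of them in H2ac18, which carried 1925 to 2652 counts. For H3c14, 35.2% of the windows occurred in H3c15, which had 117 to 166 counts. For both genes, a count of 0 does not show that they were silent. In all, the histone genes took 0.0838% to 0.106% of the counts of a library. Of the histone counts, H2A genes held 76.5%, H2B 10.05%, H1 9.11%, H4 3.40% and H3 0.983%, where reads placed on several genes may enter more than once. The table holds all 5 annotated H1 genes, 16 of 18 H2A and 12 of 13 H4 genes. It holds 14 of 19 H2B and 7 of 12 H3 genes, so these shares do not cover whole families.

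**Figure D1:**
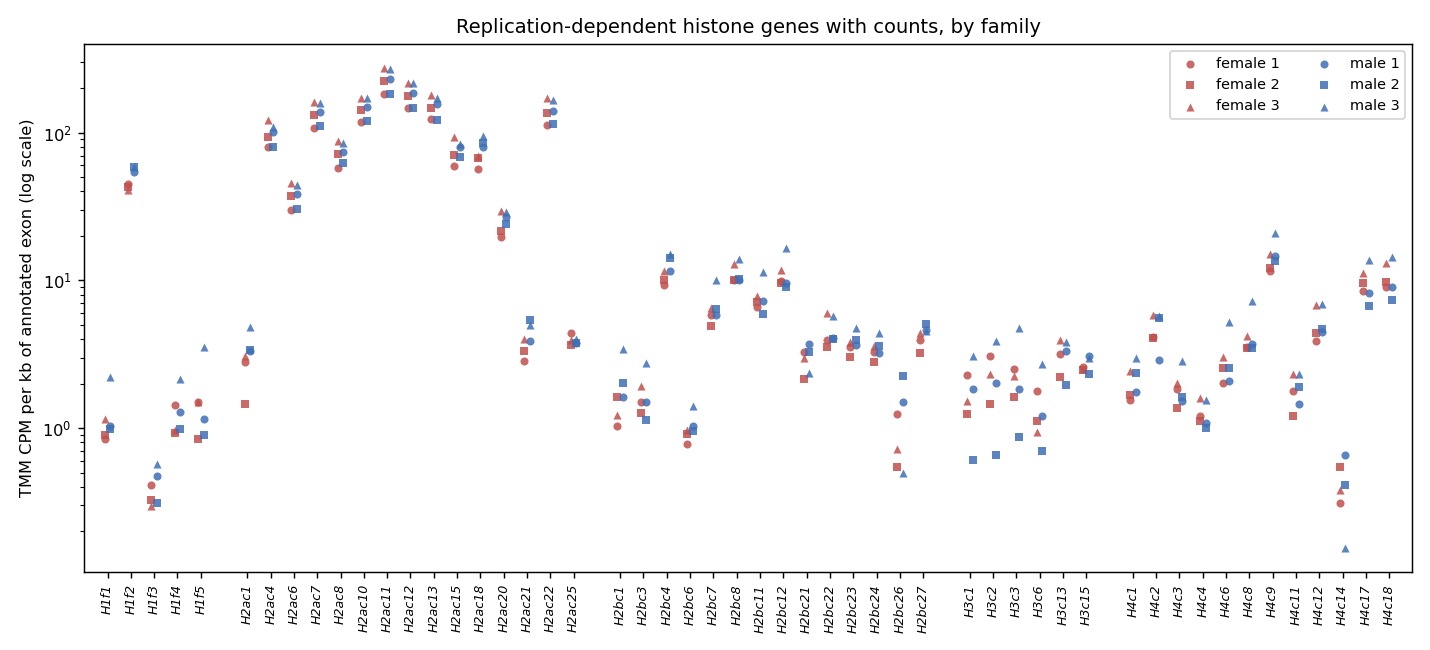
TMM CPM per kilobase of annotated exon (log axis) of the 52 histone genes with counts, by family; each point is 1 library, red for females and blue for males. H2A genes reached 227 CPM per kilobase (H2ac11, mean over libraries), whereas the highest H3 gene had 3.08.

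Per kilobase of annotated exon, the families stood far apart. The median over genes was 76.0 CPM per kilobase for H2A, 4.04 for H2B, 3.60 for H4, 2.27 for H3 and 1.29 for H1, without the genes at 0. The highest of all were H2ac11 with 227, H2ac12 with 182 and H2ac13 with 150 CPM per kilobase, all core H2A genes of chromosome 13. H1f2, which encodes linker histone H1.2, had 50.02 CPM per kilobase, and the other H1 genes had 0.399 to 1.57. In the H2B family the highest was H2bc4 with 11.9, followed by H2bc8 with 11.2 and H2bc12 with 11.1 CPM per kilobase. H4c9 had 14.6, H4c18 10.5 and H4c17 9.68, and H3c13 led the H3 family with 3.08, ahead of H3c15 with 2.66 and H3c3 with 2.31 CPM per kilobase. These levels rest on annotated exon lengths and on the counting of shared reads, which the counts cannot settle.

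H2A and H2B genes often lie head to head and share the DNA between their starts. Among the histone genes in the table, 9 such pairs had starts within 500 bases of each other. Pairs with a partner that was not matched by identifier were not counted. The H2A gene had the higher level per kilobase in 9 of 9 pairs, by a median of 8.53 times. The family medians also stood apart, at 76.0 CPM per kilobase for H2A and 4.04 for H2B. Annotated exon lengths and the counting of shared reads enter these ratios, so the 9 pairs are not to be read as independent observations. The ratio ran from 1.72 for H2ac1 and H2bc1 to 30.8 for H2ac22 and H2bc22. H2ac11 and H2bc11, with starts 270 bases apart, had 227 and 7.66 CPM per kilobase.

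Several H2A genes of chromosome 13 kept almost fixed proportions across libraries, but others did not. The count of H2ac6 divided by that of H2ac11 lay between 0.837 and 0.859 in all 6 libraries, an SD of 0.0128 on the log2 scale, whereas independent counting alone would give 0.0285. For H2bc23 and H2bc24, whose windows were all shared, the ratio ran from 0.978 to 1.04, with an SD of 0.0334 where independent counting would give 0.103. H4c17 and H4c18 had an SD of 0.0639, against 0.142. In these 3 pairs the ratio varied less than separately drawn counts would. H2ac6 over H2ac15 varied more, from 2.80 to 3.36, with an SD of 0.0985 against 0.0425. H2ac1 over H2ac6, on few H2ac1 counts, ran from 0.0061 to 0.0174, with an SD of 0.568 against 0.194.

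**Figure D2:**
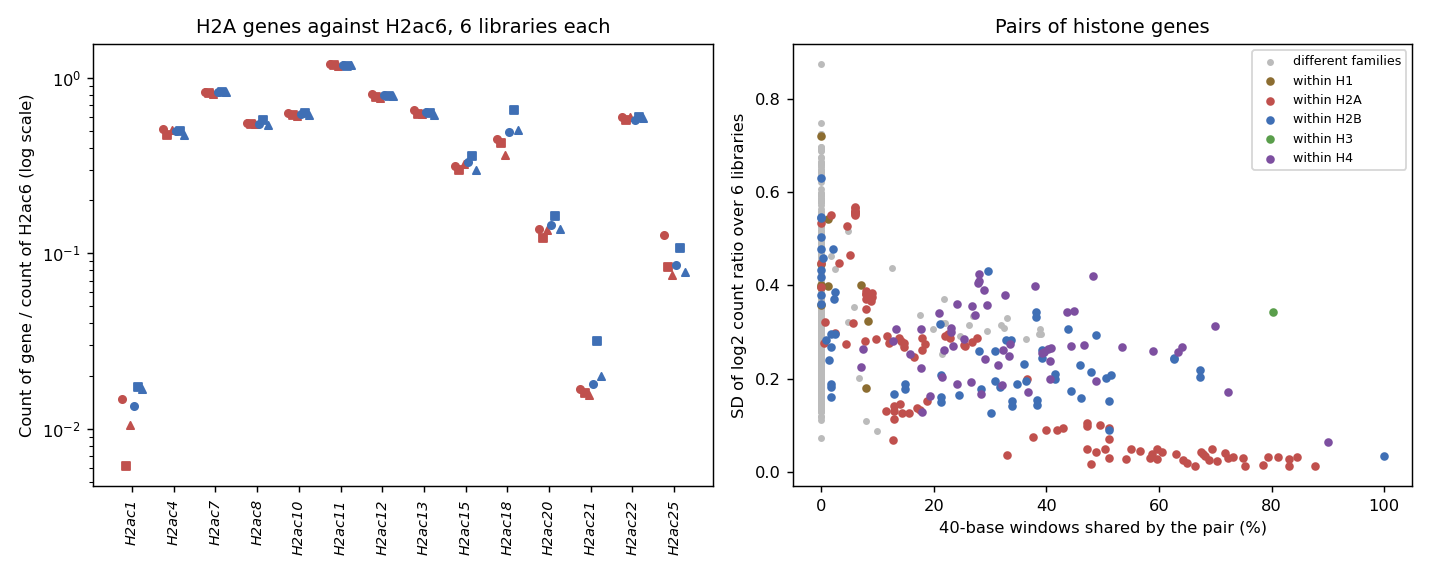
Left, counts of each H2A gene divided by those of H2ac6 in the same library (log axis, 6 libraries a gene, red females, blue males). Right, for each pair of histone genes, the SD of the log2 count ratio over 6 libraries against the share of 40-base windows in common; pairs sharing at least 50% had a median SD of 0.0401 where counting alone would give 0.0386, and pairs sharing none 0.322 where it would give 0.168.

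Over all pairs with at least 30 counts in every library, the 51 that shared at least 50% of windows had a median SD of 0.0401, against 0.276 for the 196 that shared less and 0.322 for the 743 that shared none. Independent counting would give a median of 0.0386, 0.142 and 0.168 in these 3 groups, so that count levels differed between them as well. H2ac18, in the cluster on chromosome 3, did not follow this block, and H2ac6 over H2ac18 ranged from 1.53 to 2.77 with an SD of 0.288. Where windows are shared, the same reads may stand behind several genes, and how they were counted is not known. The counts of genes given below are therefore not to be read as counts of independent observations.

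The question of the comparison was whether histone transcripts differ between female and male BECs at 12 weeks. None of the 52 genes passed an adjusted p of 0.05 in edgeR's quasi-likelihood test, in which 0.0411% of all 19480 genes did (0.0257% with males higher and 0.0154% with males lower), nor did any in DESeq2's Wald test. At an unadjusted p under 0.05, 3 histone genes were higher in males (H1f2, H2ac18 and H2bc4) and 0 lower. That is 5.77% of the 52, where 9.79% of all genes tested passed in either direction, 5.03% with males higher and 4.76% with males lower. The smallest adjusted p of the list was 0.222 (edgeR). The groups did not overlap for 5 genes, all higher in males (H1f2, H2ac1, H2ac18, H2bc1 and H2bc27), or 9.62%, where 14.5% of all genes did not overlap in either direction, 7.25% with males higher and 7.29% with males lower. The median log2 fold change of males over females was 0.17 for the histone genes and -0.0012 for all genes tested, with 43 histone genes above 0 and 9 below. Without male replicate 3 the median was -0.09, with 22 genes above 0 and 30 below.

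**Figure D3:**
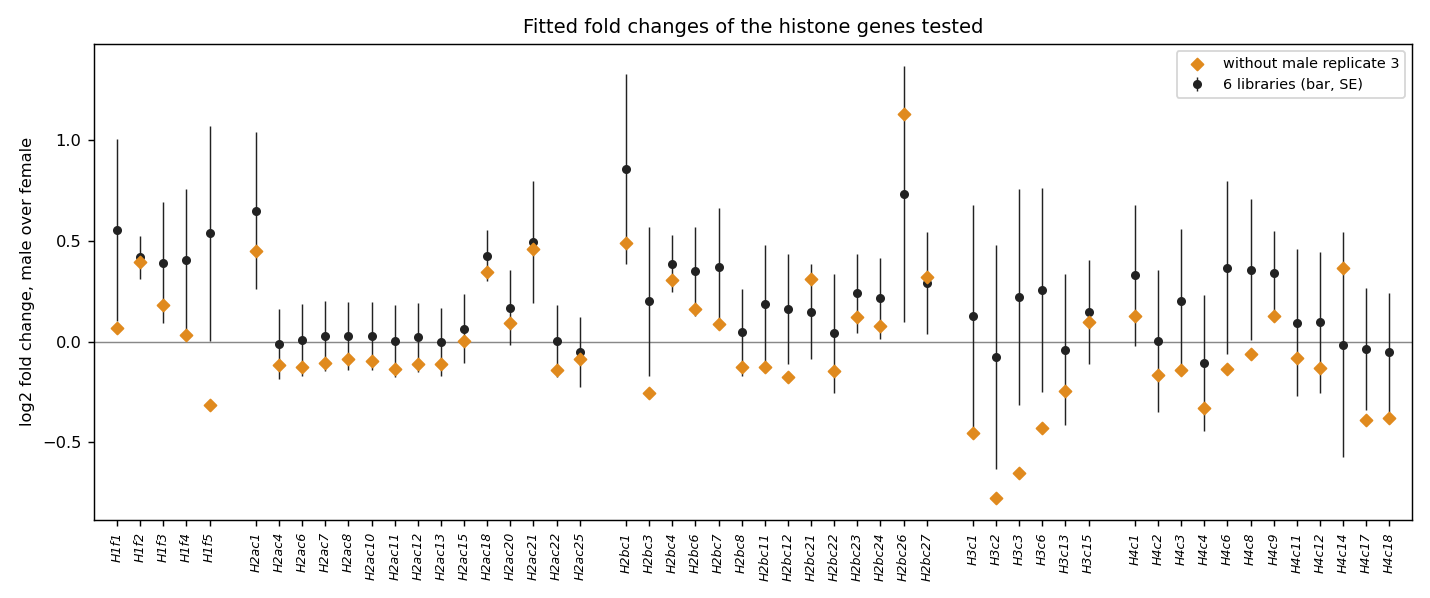
Fitted log2 fold change, male over female, of the 52 histone genes tested, by family (black, with SE as bars), and the same without male replicate 3 (orange). Among the family medians that of the 6 H3 genes shifted most, from 0.14 to -0.44, while H1f2 moved from 0.42 to 0.40.

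Among the linker histones, H1f2 (chr13:23922791-23924350, plus strand, 1560 bases of exon) had 69.9, 66.8 and 63.7 CPM in female replicates 1, 2 and 3 and 84.2, 91.9 and 91.6 CPM in male replicates 1, 2 and 3. All 3 male libraries were above all 3 female ones. The log2 fold change was 0.42 with an SE of 0.106, and the adjusted p in edgeR was 0.222. It kept its direction in every leave-one-out fit, from 0.38 to 0.46. H1f2 makes up most of the H1 sum, which was 73.2 ± 3.90 CPM in females and 97.9 ± 6.19 CPM in males (SD, n = 3) with no overlap. H1 shares few windows with other genes, so this sum is less exposed to reads placed on several genes than those of the core families.

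The other H1 genes were low and were highest in male replicate 3. H1f5, encoding H1.5, had 1.11, 0.624 and 1.11 CPM in females and 0.854, 0.670 and 2.61 CPM in males. Its fold change was 0.54 on the log2 scale with male replicate 3 and -0.32 without it. H1f4 had 2.75, 1.78 and 1.87 CPM in females and 2.47, 1.91 and 4.13 CPM in males, and H1f1 and H1f3 were likewise highest in male replicate 3, at 1.64 and 4.26 CPM.

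Among H2A genes, H2ac18 (chr3:96152813-96153398, plus strand) had 33.1, 39.3 and 41.0 CPM in females and 46.8, 49.5 and 55.9 CPM in males. The male libraries were all above the female ones, with a log2 fold change of 0.42, an SE of 0.127 and an adjusted p of 0.300 (edgeR). Its windows are shared in 96.3%, chiefly with H2ac19, so that reads of both genes could enter it. H2ac11 (chr13:22226630-22227114, minus strand), the most abundant, had 88.5, 109 and 133 CPM in females and 112, 88.1 and 130 CPM in males. The sexes overlapped fully, and female replicate 3 and male replicate 3 were the high libraries. Its neighbours in level, H2ac12 and H2ac13, had log2 fold changes of 0.02 and -0.0017. H2ac1, whose product is an H2A variant of the testis, was low, with 1.097, 0.568 and 1.19 CPM in females and 1.29, 1.32 and 1.88 CPM in males (log2 fold change 0.65, SE 0.390, adjusted p 0.625 in edgeR). H2ac25 on chromosome 11 was the steadiest member, with 9.48, 7.78 and 8.52 CPM in females and 8.14, 8.08 and 8.66 CPM in males.

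Among H2B genes, H2bc4 (chr13:23867631-23878163, plus strand) had 28.8, 31.1 and 36.0 CPM in females and 35.6, 43.4 and 46.3 CPM in males. Male replicate 1 lay within the female range, the log2 fold change was 0.39 with an SE of 0.139, and the adjusted p was 0.391 (edgeR). Its exons overlap those of H2ac6 on the other strand. Without male replicate 3 its unadjusted p was 0.0615 (edgeR), and 2 of the 3 genes stayed under 0.05. H2bc1, whose product is the H2B variant of the testis, had 0.398, 0.624 and 0.469 CPM in females and 0.626, 0.771 and 1.31 CPM in males. Its log2 fold change was 0.86, on 22 to 62 counts per library, with an SE of 0.470 and an adjusted p of 0.596 in edgeR, and it was 0.49 without male replicate 3. H2bc27 did not overlap either, with 2.93, 2.38 and 3.28 CPM in females and 3.42, 3.73 and 3.35 CPM in males. All 14 H2B genes had fold changes above 0, and 10 of 14 were highest in male replicate 3. Without that library 9 of the 14 were above 0 and 5 below.

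The H3 genes showed the widest spread between libraries, which was not a spread between the sexes. Their sum was 10.4, 7.13 and 8.99 CPM in females and 9.17, 5.20 and 14.2 CPM in males. Male replicate 2 was the lowest library for 6 of 6 H3 genes and male replicate 3 the highest for 4 of 6, where these libraries were lowest for 21.8% and highest for 16.2% of all genes tested, so the extremes of the family both lay in males. H3c3 had 1.58, 1.02 and 1.43 CPM in females and 1.16, 0.548 and 2.99 CPM in males. H3c2 had 1.91, 0.908 and 1.45 CPM in females and 1.25, 0.406 and 2.40 CPM in males. In contrast, H3c15 had 2.62, 2.53 and 2.58 CPM in females and 3.15, 2.38 and 3.04 CPM in males, and was nearly level. H3c13 lay between them, with 0.954 CPM in male replicate 2 and 1.94 CPM in female replicate 3 as its ends.

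Male replicate 3 was the highest library for 9 of 12 H4 genes. H4c9 (chr13:22224806-22225532, minus strand), the highest, had 8.41, 8.84 and 10.9 CPM in females and 10.7, 9.82 and 15.2 CPM in males. The log2 fold change was 0.34 with an SE of 0.208, and 0.12 without male replicate 3. H4c18 had 3.88, 4.22 and 5.64 CPM in females and 3.87, 3.17 and 6.20 CPM in males, and its near copy H4c17 ran beside it. H4c4 had 1.37, 1.27 and 1.83 CPM in females and 1.23, 1.14 and 1.77 CPM in males, the lowest log2 fold change of the list at -0.11. H4c14 went the other way from its family, with its lowest level, 0.253 CPM, in male replicate 3.

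**Figure D4:**
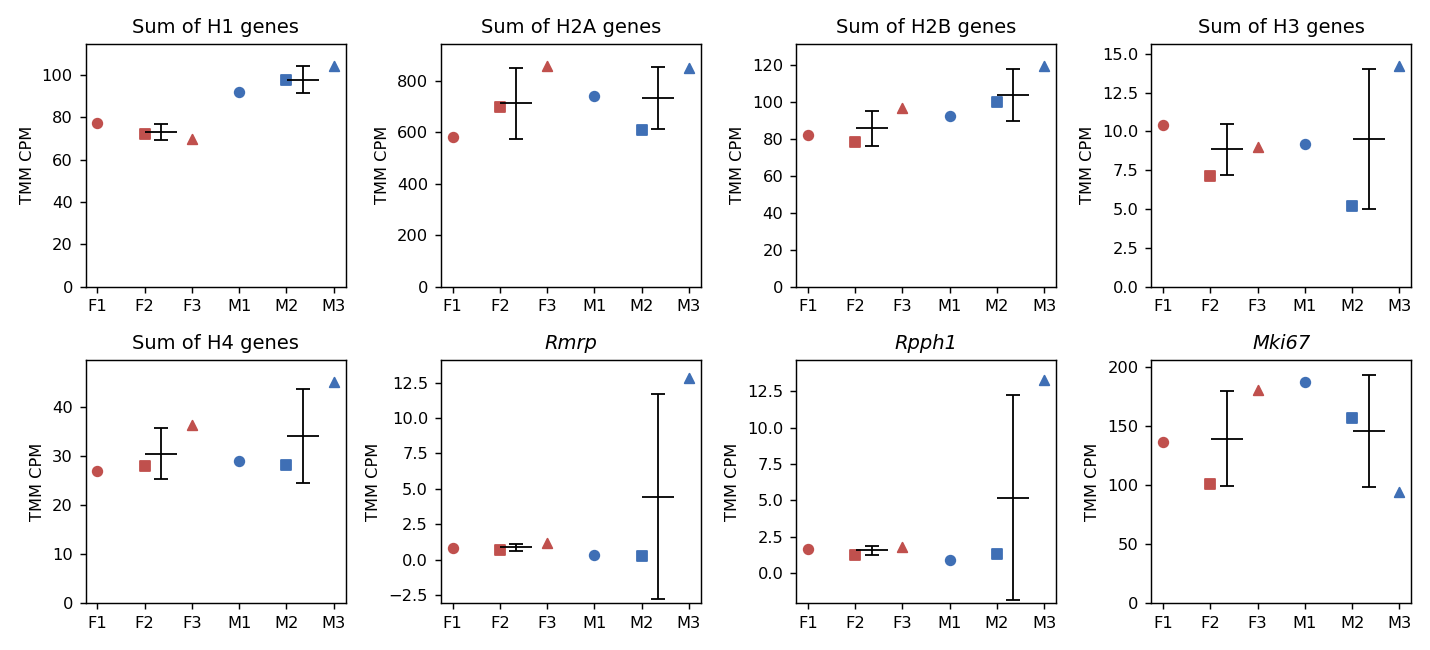
Summed TMM CPM of each histone family, and the CPM of Rmrp, Rpph1 and Mki67, in female (F1 to F3) and male (M1 to M3) libraries; black bars are the mean and SD of each sex. Male replicate 3 is highest for the sums of H1, H2B, H3 and H4 and for Rmrp and Rpph1, and lowest for Mki67.

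Summed over all members, the level was 777, 884 and 1068 CPM in females and 964, 840 and 1132 CPM in males, or 910 ± 147 and 979 ± 147 CPM (SD, n = 3), with overlap. For H2A the sums were 712 ± 138 and 733 ± 120 CPM, for H2B 85.7 ± 9.70 and 104 ± 13.95, for H3 8.84 ± 1.63 and 9.52 ± 4.52 and for H4 30.4 ± 5.19 and 34.0 ± 9.50 CPM in females and males (SD, n = 3). The sexes overlapped in each of these 4 families, and without male replicate 3 the log2 ratio of males over females was -0.08 for H2A, -0.30 for H3 and -0.09 for H4, and 0.16 for H2B and 0.37 for H1.

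Male replicate 3 was high across much of the list. It was the highest library for 29 of 52 histone genes, or 55.8%, and for 16.2% of all genes tested. It was also the highest for 5 of 11 replication-independent histone genes, or 45.5%, where its median ratio to the other libraries was 1.07. The 20 neutrophil markers had a median ratio of 1.27 there, and 4 of them were highest in that library. The erythroid, B cell, endothelial, stromal and macrophage markers had median ratios of 0.801, 0.870, 0.886, 0.905 and 0.965. The part of any of these cells in the histone levels was not tested. Relative to the mean of the other 5 libraries, the level in male replicate 3 was a median of 1.92 times for H1, 1.22 for H2A, 1.33 for H2B, 2.04 for H3 and 1.51 for H4, and 0.983 times for all genes tested. The ratio was 1.64 at the median for the 17 genes whose transcript model ends within 100 bases of the stem-loop, 1.31 for the 17 whose model runs on further and 1.31 for the 18 without a stem-loop. Highest among single genes were H1f5 with 2.99 times and H3c3 with 2.61 times. Conversely, female replicate 3 was the highest library for 15 genes, 11 of them H2A genes.

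The RNAs that carry no poly(A) tail were read alongside, from a list of 18 names, 11 of them in the table and 6 tested. Rmrp, the RNA of RNase MRP, had 0.795, 0.662 and 1.17 CPM in females and 0.304, 0.264 and 12.8 CPM in males. Rpph1, the RNA of RNase P, had 1.67, 1.23 and 1.79 CPM in females and 0.892, 1.32 and 13.3 CPM in males. Male replicate 3 thus had 20.02 times the mean of the other libraries for Rmrp and 9.64 times for Rpph1. Scarna2, a small Cajal body RNA, was at 2.99 CPM there and at 0.922 to 1.23 CPM in the others. Male replicate 2 was the lowest library for Rmrp and male replicate 1 the lowest for Rpph1. The sum of the list, led by Malat1, was highest in male replicate 2 with 1087 CPM. Malat1 had 396 to 714 CPM in females and 595 to 921 CPM in males, and it was not highest in male replicate 3. None of the 6 passed an adjusted p of 0.05 in edgeR, and 0 had an unadjusted p under 0.05, where 9.79% of all genes tested did. Whether the share of RNA without poly(A) tails, or its selection, had a part in the histone levels of male replicate 3 was not tested.

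The cell cycle genes differed among themselves in which libraries were high. Mki67, a mark of cycling cells, had 136, 100.7 and 180 CPM in females and 187, 157 and 93.9 CPM in males, so that it was lowest in the library where most histone genes were highest. Its ratio of male replicate 3 to the other libraries, 0.617, was also the lowest of the 25 mitosis genes, whose median was 0.927. Top2a, which untangles DNA before mitosis, had 109, 90.9 and 131 CPM in females and 125, 122 and 99.3 CPM in males. Pcna, the sliding clamp of replication, was nearer to the H2A genes, with 181, 211 and 245 CPM in females and 199, 190 and 249.4 CPM in males, and was highest in the same libraries, replicate 3 of each sex. The summed replication list was highest in female replicate 3, with 2347 CPM. At an unadjusted p under 0.05, 5.03% of all genes tested were higher in males. Of 45 genes of DNA replication, 0 passed the adjusted test (edgeR) and 1 was higher in males at an unadjusted p under 0.05, namely E2f2 (log2 fold change 0.37, SE 0.153, adjusted p 0.466 in edgeR). Among 25 genes of mitosis 3 were higher at that level, Birc5, Kif23 and Kif11, with log2 fold changes of 0.38, 0.36 and 0.34 and adjusted p from 0.336 to 0.435 (edgeR). The median log2 fold changes of these lists were 0.0048 and 0.10. Male replicate 3 was the highest library for 11.1% of the replication genes and 8.0% of the mitosis genes.

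No gene that makes or matures histone mRNA passed the test between the sexes. Slbp, which binds the stem-loop, had 91.4, 85.2 and 92.2 CPM in females and 104, 99.2 and 87.8 CPM in males. Npat, the coactivator that switches on the clusters, had 13.1, 10.97 and 11.9 CPM in females and 14.3, 13.6 and 7.34 CPM in males, with male replicate 3 the lowest. Of the 24 genes in this list, 0 had an unadjusted p under 0.05 in edgeR, where 9.79% of all genes tested did in either direction. Fold changes were above 0 for 12 of the 24, with a median of -0.01. The smallest p values belonged to Ncbp1 of the nuclear cap-binding complex (log2 fold change -0.19), the exonuclease Dis3l2 (-0.21) and the SLBP partner Mif4gd (-0.16). Of 25 histone chaperones and assembly factors, 0 had an unadjusted p under 0.05 in edgeR, against the same 9.79% of all genes, with a median of -0.05. Here Hjurp, the chaperone of CENP-A, had 82.0 to 131 CPM in females and 97.5 to 178 CPM in males. The log2 fold change was 0.51, with an adjusted p of 0.515 in edgeR. Rbbp7 and the importin Ipo4 had fold changes of -0.25 and -0.28 on the log2 scale.

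In these counts the replication-independent genes H3f3a and H3f3b stood above the replication-dependent H3 genes. Only 7 of 12 annotated replication-dependent H3 genes are in the table. The labels name polyadenylated RNA, which holds the mRNAs of such genes in part only, while the study's methods name a total RNA kit. H3f3a and H3f3b, which both encode H3.3, had 258 and 219 CPM per kilobase, against 3.08 for the highest replication-dependent H3 gene. H3f3a had 1376, 1444 and 1594 CPM in females and 1500, 1751 and 1794 CPM in males, which overlapped. H3f3b had 662, 611 and 580 CPM in females and 717, 687 and 695 CPM in males, which did not, with a log2 fold change of 0.18, an SE of 0.128 and an adjusted p of 0.694 in edgeR. H2az1, which encodes H2A.Z, had 508, 546 and 643 CPM in females and 540, 659 and 788 CPM in males. H2ax, the damage-responsive H2A, was level, with 85.9 to 108 CPM in females and 96.6 to 107 CPM in males. Of the 11 genes tested in this list, 8 had fold changes above 0, and the median was 0.15. At an unadjusted p under 0.05 in edgeR there were 0, where 9.79% of all genes tested passed in either direction. The smallest p values were those of Macroh2a2 (log2 fold change -0.74), Cenpa (0.19) and H1f10 (-0.32).

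The makeup of the libraries differed between the sexes, and these values stand beside every male to female difference above. The 24 endothelial markers summed to 515 to 727 CPM in females and 329 to 477 CPM in males, 17 of 24 were lower in males at an unadjusted p under 0.05 in edgeR (4.76% of all genes tested), and none was at 0. Emcn, the marker used for selection, had 8.68, 5.35 and 10.5 CPM in females and 4.21, 3.09 and 6.73 CPM in males. The 20 neutrophil markers summed to 20251 to 24838 CPM in females and 34199 to 46382 CPM in males, 14 of 20 were higher in males at that level (5.03% of all genes tested), and none was at 0. Erythroid markers summed to 12611 to 18140 CPM in females and 18913 to 27882 CPM in males, with 5 of 19 higher and 1 lower in males at that level. Over these 19 the median log2 fold change was only 0.084, with 14 above 0 and 5 below. Macrophage markers summed to 5317 to 5591 CPM in females and 3462 to 4620 CPM in males, with 12 of 12 lower in males. Thus the marker RNA of blood cells exceeded that of endothelium in all 6 libraries, against the label of purified BECs, and the histone transcripts cannot be assigned to endothelial cells. The neutrophil and erythroid sums were higher in males and the endothelial and macrophage sums lower, without overlap, beside the values of H1f2, H2ac18 and H2bc4, and the part of any of these cells in those values was not tested. In such bulk RNA, fewer cells of a type and less RNA per cell cannot be told apart.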

How the data were processed

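RNA of BECs was measured in 6 libraries, 3 per sex. The authors deposited whole-number counts of reads per gene, without normalization and without pooling. The sources disagree on how they were made. The labels name polyadenylated RNA, 40-nucleotide paired reads, TopHat2 2.0.11, featureCounts and mm9. The study's methods name a total RNA kit, 100-nucleotide reads, STAR and GRCm39. Strand use and the handling of reads that fit several genes are not given in the sources used here.

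Identifiers were matched to GENCODE M39 on GRCm39 (31073 of 37991, with 96.2% of counts). Of 67 annotated genes that meet the symbol rule, 13 were not matched by identifier and were not analysed here. The members and lists were chosen with earlier results of these data known. The fit used edgeR 4.0.16 in R 4.3.3: TMM, the default filter by sex, robust quasi-likelihood tests without a block, and Benjamini-Hochberg adjustment over 19480 genes. Each SE follows from the fold change and its F statistic. On simulated data for this comparison over 19480 genes, 58.5% of 200 genes changed 2-fold and 93% of 200 changed 4-fold were recovered. The changed genes were drawn only from those above a minimum mean CPM. Some histone genes, such as H2bc26 with a mean of 0.429 CPM, did not reach it, so these rates do not cover them.

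Genes were named by a rule: per family the 3 highest per kilobase, the 5 smallest p in each direction, members at 0, the 3 smallest p of each related list, and Slbp, Npat, Mki67, Pcna, Top2a, H2ax, H2az1, H3f3a and H3f3b. Other genes named were chosen after their values were seen. Endothelial, neutrophil, erythroid, macrophage, B cell and stromal markers were read as composition. B cell markers summed to 4983 to 6269 CPM and overlapped between the sexes. Sums of stromal markers overlapped too, while 11 of 12 had fold changes below 0 (males lower), with a median log2 fold change of -0.48. Of these 11, 4 had an unadjusted p under 0.05 in edgeR, where 4.76% of all genes tested were lower in males at that level.

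Alternatives were total counts in place of TMM, size factors of DESeq2, a filter of at least 10 counts in every library or none, the replicate number as a block, DESeq2 1.42.0's Wald test, protein-coding genes alone, no robust estimation, the mean of log2 levels for sums, and leaving out 1 library at a time. The libraries differed by more than sampling noise (chi-square per degree of freedom of at least 33.6 in 15 pairs). Floors cover counting error only, because PCR copies cannot be told from separate molecules where no molecular identifiers were used.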

Additional observations from a re-analysis of the deposited data

How the results depend on the processing

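The absence of histone genes at an adjusted p under 0.05 held in every alternative run, and the number under an unadjusted 0.05 was 2 to 3 when a library was left out and 3 otherwise. Whether the replicate numbers pair the libraries was not settled. Between the sexes, libraries of the same number had correlations of 0.269, 0.0628 and 0.382, and 5 of 6 libraries were nearest their own number. With the replicate block the median log2 fold change was 0.12 and 428 of all genes passed, against 8 without it, 354 in DESeq2's Wald test, 96 without male replicate 3, 98 without a filter, 78 among protein-coding genes and 14 with total counts. The block turned H3c3 to -0.061 and H2ac13 to 6.29e-04. H2ac13 was 0.0022 with DESeq2's size factors and 3.22e-04 in its Wald test, and total counts turned H2ac11 to -0.0045 and Pcna to -0.0074.

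Leaving out a library gave medians from -0.092 (without male replicate 3) to 0.28. Genes with no overlap then numbered 5 to 16 with males higher (16 without female replicate 3, 9 without male replicate 1, 8 without male replicate 2) and 0 to 4 with males lower (4 without male replicate 3), where fewer libraries also make separation easier. The shares of all genes with a library left out are not given here, so these counts have no background to be read against. Among the genes named by rule, the log2 fold changes that turned sign ran from -0.32 to 0.87 for H1f5, -0.14 to 0.16 for H2ac11, -0.11 to 0.17 for H2ac12, -0.11 to 0.15 for H2ac13, -0.13 to 0.18 for H2bc8, -0.18 to 0.32 for H2bc12, -0.25 to 0.19 for H3c13, -0.65 to 0.63 for H3c3, -0.38 to 0.14 for H4c18, -0.39 to 0.16 for H4c17, -0.33 to 0.065 for H4c4, -0.12 to 0.035 for H2ac25, -0.78 to 0.36 for H3c2, -0.50 to 2.22 for Rpph1, -0.20 to 0.22 for Npat, -0.15 to 0.30 for Mki67, -0.13 to 0.12 for Pcna, -0.052 to 0.21 for Top2a and -0.044 to 0.12 for H2ax. Other histone genes turned sign as well without male replicate 3, among them H2bc3 (0.20 to -0.25), H3c1 (0.13 to -0.45) and H4c6 (0.37 to -0.14). The log2 ratio of the summed level ran from -0.014 to 0.24. The cause was not tested.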
